A study of Mus musculus with 24 samples.

Results

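The genes described here encode the proteins of the cytosolic ribosome, read from sequenced poly(A) RNA of mouse livers. Members were chosen by gene symbol alone: the Rpl and Rps symbols with a number and an optional final a, l or x, together with Rplp0, Rplp1, Rplp2 and Rpsa, leaving out symbols that end in -ps. The rule took 83 of 56205 gene rows, and 78 of those 83 were among the 14109 genes with enough counts to be tested. The 5 members left out (Rpl3l, Rpl39l, Rpl10l, Rpl6l and Rpl32l) had at most 7 counts in any library. Livers came from C57BL/6J mice of both sexes kept for 20 weeks either on a methionine-choline deficient (MCD) diet, 12 mice, or on its control diet, 12 mice. The MCD diet, which the study's methods list as high in fat, is used to model steatohepatitis with fibrosis. No genetic change was made in either group, and the labels give neither sex nor litter nor batch for a single library. All members measured here were therefore compared between diets with the sexes mixed.

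A cytosolic ribosome has a large and a small subunit, each built of ribosomal RNA and a fixed set of proteins, most of them needed in equal numbers in every particle. The large subunit forms peptide bonds and holds the tunnel through which the new chain leaves, while the small subunit binds and decodes the mRNA. Rplp0, Rplp1 and Rplp2 form the stalk, a lateral arm of the large subunit that recruits elongation factors. In mammals the mRNAs of these proteins begin with a run of pyrimidines, the terminal oligopyrimidine (TOP) motif, through which their translation follows mTOR signalling. Hepatocytes export most plasma proteins and depend on a large ribosome pool.

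Start sites are shown because the TOP motif lies there, for the 14 members whose share of the ribosomal protein mRNA passed a false discovery rate of 0.01 between the diets and that have an entry in the RefSeq promoter table. That rate was adjusted over all genes tested, not over the members alone. Each line gives 30 bases, 5 before and 25 from the annotated start onward, read along the gene's own strand in build GRCm38.p6. Capitals mark the longest run of pyrimidines (C or T) in the window where it has 5 or more bases. The first 10 genes gained share in MCD livers and the last 4 lost share.
Rpl12, chr2:32961707-32961736, plus strand: gatccgTCTTTTCggctttcggctcggagg
Rps12, chr10:23787185-23787214, minus strand: cggccaccgccggCCTTTTCCCCTgccgcc
Rpl41, chr10:128549144-128549173, minus strand: ggctcggaagtgacgacaccgagcacgcca
Rpl35, chr2:39005107-39005136, minus strand: CTTTCCTCTTTCTCTCgaaccaggctgctt
Rps10, chr17:27635220-27635249, minus strand: cgCCCCTTCCTTTCCagcctccgcctcgga
Rpl13a, chr7:45128721-45128750, minus strand: gacaagaCCTCCTCCTTTCCCaggcggctg
Rps21, chr2:180257374-180257403, plus strand: ccgCCCTCCTgcccaatagtgctgcggagg
Rps15a, chr7:118116123-118116152, minus strand: gccaTCTTCCCTCgccggtgagtgagtgtt
Rps16, chr7:28350684-28350713, plus strand: tcgtgacgtagcactcaatgcgcctgcgca
Rps9, chr7:3704036-3704065, plus strand: CTCTCTTTgtctcgggcctgagttcgtagg
Rpl11, chr4:136053369-136053398, minus strand: aggccacggggccggaagTCTCCCTCTCTC
Rpl4, chr9:64173382-64173411, plus strand: tgtgggagcagccgggtagagaggagcgtg
Rps27l, chr9:66946081-66946110, plus strand: ccgccgCCTCTatcccggaagttgctgagg
Rps2, chr17:24720058-24720087, plus strand: gatctcgcgCTTCTTggagcactataaatt
Long runs were found among genes that gained share (Rpl35, 16 bases, Rpl13a, 14 bases, and Rps10, 13 bases) and among genes that lost it (Rpl11, 12 bases). Rpl41, Rps16 and Rpl4 showed none of 5 bases in this window, though Rpl4 had a run of at least 8 within 40 bases of the start. Runs of Rpl35, Rps9 and Rpl11 reach the edge of the window and may be longer. The starts are annotated ones, and those used in these livers were not measured. Over the 57 tested members with an entry, 41 (71.9%) had a run of at least 8 pyrimidines on the sense strand within 40 bases either side of the annotated start, against 26.7% of 10530 tested genes with an entry. On the antisense strand the same search found 21.1% of members and 29.6% of all genes. The motif CCGGAAGT, searched on both strands from 250 bases before to 50 bases after the start, was in 21.1% of member promoters and in 8.01% of all. CTCTTTCC, itself all pyrimidines and so part of such a run on the sense strand, was within 40 bases of the start on either strand in 8.77% of members and 0.655% of all. TATAAA on either strand in the 50 bases before the start was in 0 of 57 members and 2.03% of all genes. The median log2 fold change was 0.41 for the 41 members with a long sense run and 0.43 for the 16 without.

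Total counts ran from 16388650 to 24915175 per library. Libraries were scaled by the trimmed mean of M-values (TMM), and levels are given as CPM (counts relative to library size) on that scale. Control library 12 stood apart from the other 11 controls: it had the smallest scaling factor of all 24 libraries (0.642), the smallest share of counts in mitochondrially encoded genes (5.34%), and the highest level in any control for 77 of 78 members. For 65 of 78 members it was also above every MCD library. Control libraries 3 and 6 lay at the other end, one or the other being the lowest control for 71 of 78 members. Other library measures moved with diet as well. Genes with at least 1 count numbered 17469 to 18799 in control and 18880 to 19830 in MCD libraries, without overlap, and the mitochondrially encoded share had a median of 8.95% in control (at most 11.5%) and 7.0% in MCD libraries (5.49% to 7.79%). Their part in the results was not tested. Results are given with all libraries and without control 12, and also without control 3, 6 and 12 where that matters, a choice made after the values had been seen.

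The first question was how much of the liver mRNA pool encoded ribosomal proteins on each diet. Summed over the 78 members, ribosomal protein genes took 0.799% (lowest), 1.15% (median) and 1.75% (highest) of all counts in control libraries and 1.77%, 1.90% and 2.35% in MCD libraries. The diets did not overlap on this scale, control 12 being the highest control. As CPM, the summed level was 8253, 12778 and 27201 in control livers and 15799.8, 17125 and 20576 in MCD livers. On that scale control 12 lay above every MCD library, and the other 11 controls reached at most 15380.4 and stayed below all of them. No test was run on these sums, because the members were chosen with earlier results of these data known. In whole tissue, fewer cells of a type and less RNA per cell cannot be told apart.

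**Figure D1:**
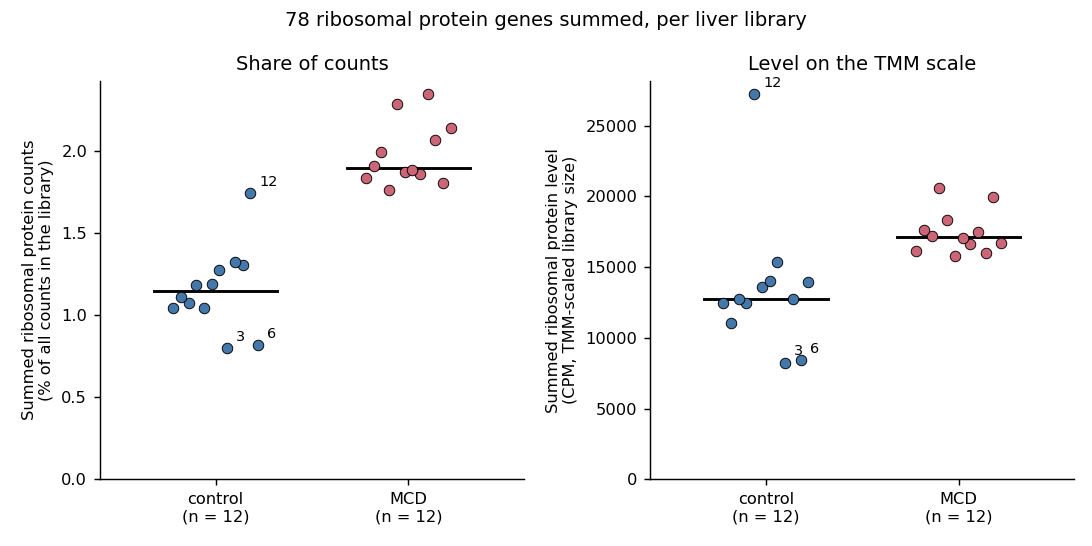
Summed counts of the 78 tested ribosomal protein genes in each library (points), as a percentage of all counts (left) and as CPM on the TMM scale (right), with the median of each diet as a bar and control libraries 3, 6 and 12 numbered. On the left the highest control (1.75%) lies just below the lowest MCD library (1.77%), and on the right control 12 (27201 CPM) lies above the highest MCD library (20576 CPM).

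Gene by gene, edgeR's quasi-likelihood test called 22 of the 78 members (28.2%) higher in MCD livers and 0 lower. A call needed a false discovery rate (FDR) of at most 0.01 and a log2 fold change beyond 0.5 in size. Over all 14109 genes tested, 19.2% were called higher and 19.1% lower. At an unadjusted p under 0.05 in the edgeR fit, 56 members were higher and 0 lower, but the share of all genes was not counted at this limit. DESeq2 and limma-voom also called 0 members lower. At an FDR of 0.05 with no fold limit, 48 members (61.5%) were higher and 0 lower, where the background was 26.5% higher and 37.0% lower. A log2 fold change above 0 was found for 77 of 78 members and for 42.5% of all genes. The members' median log2 fold change was 0.42 and that of all genes -0.10. Without control 12, 51 of 78 members (65.4%) were called higher, 0 lower, and the median was 0.58, beside a background of 21.5% higher. Without control 3, 6 and 12 there were 37 called higher and the median was 0.49, beside a background of 22.1%. Without control 6, 14 (17.9%) were called higher, under the 19.1% of all genes called higher in the same fit. Of the 22 calls, 14 were kept whichever single library was left out and 8 were lost in 1 or more of these fits. The increase of a typical member was thus small, and how many members passed the fold limit depended on few control libraries.

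The size of the shift also depended on scaling. TMM factors of the diets did not overlap (0.642 to 0.973 in control, 1.07 to 1.26 in MCD libraries). With libraries scaled by total counts alone, 72 members were called higher and the members' median was 0.82, while the median of all genes moved from -0.10 to 0.27 and 32.2% of all genes were called higher. Measured from the median of all genes, the members' median lay 0.52 higher on the TMM scale and 0.55 higher on total counts. A correction for a trend with transcript length brought that distance to 0.35 and the number called higher to 11 (14.1%), under the 20.0% of all genes called higher in that fit. Among genes with transcripts under 1000 bases other than the members, the summed level was 83865 to 284515 CPM in control libraries, with control 12 highest, and 74421 to 104673 CPM in MCD libraries. The part of transcript length in the members' shift was not tested beyond that correction.

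**Figure D2:**
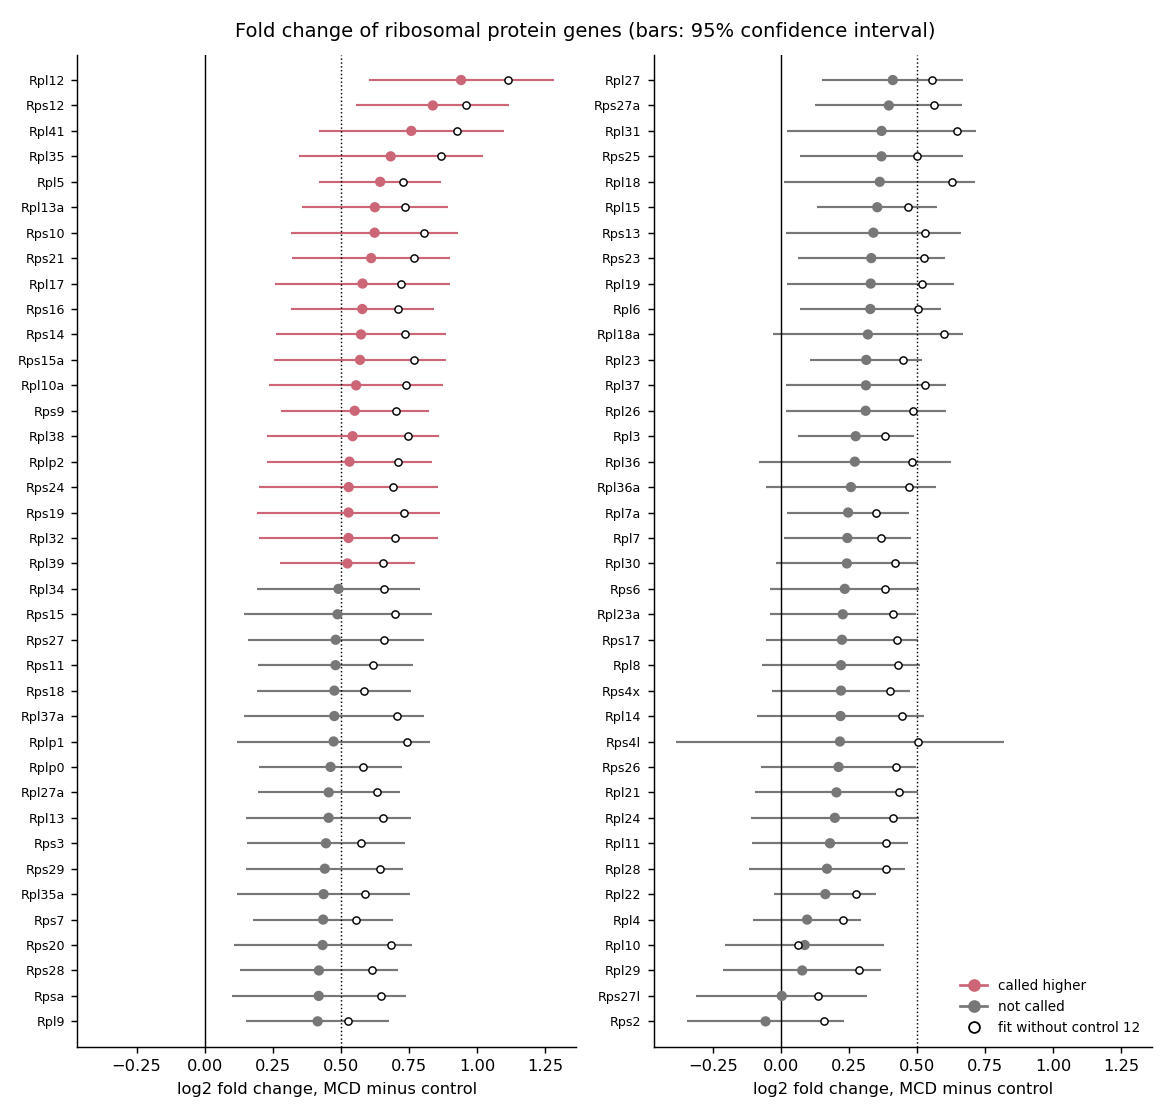
Fitted log2 fold change (MCD minus control) of 76 tested members with its 95% confidence interval, ordered from highest to lowest, with the 20 of them called higher in red, the others in grey and the fit without control 12 as open circles; the dotted line is the fold limit of 0.5. Values run from 0.94 (Rpl12) to -0.06 (Rps2), and the open circles lie to the right of the filled ones except for Rpl10.

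Of the 43 large subunit members outside the stalk, 10 (23.3%) were called higher (median log2 fold change 0.33), near the 19.2% of all genes, and 23 (53.5%) without control 12, where 21.5% of all genes were. The largest change was in Rpl12 (ENSMUSG00000038900), which sits at the base of the stalk. Its level was 5.35, 11.6 and 24.5 CPM (lowest, median, highest) in control and 19.3, 23.2 and 29.0 CPM in MCD livers. Every MCD library lay above the 11 other controls, and 4 of 12 also above control 12. The log2 fold change was 0.94, with an SE of 0.17 and an edgeR FDR of 2.03e-05. Rpl12 had few counts for a ribosomal protein gene, 87 to 324 per control library and 444 to 798 per MCD library.

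Rpl41, the shortest ribosomal protein, had 93.3, 222 and 437 CPM in control and 320, 357 and 473 CPM in MCD livers. Its log2 fold change was 0.76, with an SE of 0.17 and an edgeR FDR of 0.000285, and only control 12 reached into the MCD range. Rpl35, a protein of the rim of the exit tunnel, had 47.4, 103 and 224 CPM against 152, 171 and 205 CPM. Control 12 was above all MCD libraries and the other 11 controls were below them, with a log2 fold change of 0.68, with an SE of 0.16 and an edgeR FDR of 0.000781. Rpl5, which carries 5S ribosomal RNA into the large subunit together with Rpl11 and binds the p53 regulator Mdm2, had 7.56, 12.01 and 16.9 CPM in control and 16.2, 18.1 and 24.7 CPM in MCD livers. For Rpl5, 9 of 12 MCD libraries lay above every control, the most of any member, and control 12 was close to control 1 (16.9 and 16.4 CPM). Its log2 fold change was 0.64, with an SE of 0.11 and an edgeR FDR of 1.27e-05.

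Rpl13a, a large subunit protein also known for silencing inflammatory mRNAs after interferon-γ, had 89.95, 172 and 269 CPM in control and 232, 270.2 and 316 CPM in MCD livers (log2 fold change 0.62, SE 0.13). Rpl17, which also lines the tunnel exit, had 101, 229 and 416 CPM against 303, 336 and 418 CPM (log2 fold change 0.58, SE 0.16). In both genes the 11 other controls lay below every MCD library. Rpl10a, Rpl38, Rpl32 and Rpl39 were the remaining large subunit genes called higher, with log2 fold changes from 0.56 down to 0.52. Without control 6 the log2 fold changes of Rpl39 (0.47), Rpl38 (0.48) and Rpl32 (0.45) were under the limit and these calls were lost, that of Rpl32 also without control 11.

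Of the 32 small subunit members, 11 (34.4%) were called higher (median log2 fold change 0.44), and 25 (78.1%) without control 12, beside 19.2% and 21.5% of all genes. Rps12 (ENSMUSG00000061983), of the beak of the small subunit, had 71.5, 145 and 242 CPM in control and 212, 264 and 314 CPM in MCD livers. The 11 other controls reached at most 178 CPM, and 8 of 12 MCD libraries were also above control 12. Its log2 fold change was 0.84, with an SE of 0.14 and an edgeR FDR of 7.63e-06. Rps10, another protein of the beak, had 88.1, 164 and 352 CPM against 226, 262 and 313 CPM (log2 fold change 0.62, SE 0.15, edgeR FDR 0.000718). For Rps10 control 12 was above all MCD libraries and the next control, at 199.6 CPM, below them. Rps21 had 33.2, 60.0 and 115 CPM in control and 75.05, 90.1 and 125 CPM in MCD livers, with the 11 other controls below all MCD libraries. Its log2 fold change was 0.61, with an SE of 0.14 and an edgeR FDR of 0.000527. Also called higher in the small subunit were Rps16, Rps14, Rps15a, Rps9, Rps24 and Rps19, with log2 fold changes from 0.58 down to 0.53. Without control 6 the calls of Rps9 (0.49), Rps24 (0.457) and Rps19 (0.455) were lost, that of Rps19 also without control 5, 9, 10 or 11 and that of Rps24 also without control 3 or 11, and Rps14, Rps15a, Rpl17 and Rpl10a stayed just past the limit, at 0.50.

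The 3 stalk genes had log2 fold changes of 0.53 (Rplp2), 0.47 (Rplp1) and 0.46 (Rplp0), of which Rplp2 passed the limit, but not without control 6 (0.468) or control 9 (0.491). Rplp1 had 240.4, 352 and 1068 CPM in control and 483, 539 and 673 CPM in MCD livers. With control 12 at 1068 CPM its FDR was 0.019, and without that library the fold change was 0.74 (edgeR FDR 7.06e-08). All 3 stalk genes were called higher without control 12, with each MCD library above each of the 11 remaining controls.

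At the threshold, Rpl39 was the last member inside (log2 fold change 0.52) and Rpl34 the first outside (0.49, edgeR FDR 0.00468). Rpl34 had 55.8, 110.0 and 221 CPM in control and 136, 157 and 187 CPM in MCD livers, and apart from control 12 its diets did not overlap either. In all, 14 further members passed the FDR with a log2 fold change of 0.5 or less, a class for which the share of all genes was not counted. No member had every MCD library above every control, where 9.50% of all genes did, and none had every one below, where 4.88% did. Without control 12, 41 of 78 members did, where 11.7% of all genes did.

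Smallest changes were found in Rps2, Rps27l, Rpl29, Rpl10 and Rpl4. Rps2, of the mRNA entry channel, had 405, 552 and 1363 CPM in control and 513, 563 and 654 CPM in MCD livers, so the diets overlapped fully. Its log2 fold change was -0.06, with an SE of 0.14 and an edgeR FDR of 0.741, the only negative value, and it was 0.16 without control 12 and 0.36 with total counts. Rps27l, a paralog of Rps27 and a p53 target gene, had 41.0, 101 and 164 CPM against 83.3, 97.0 and 106 CPM. Its value was 0.0027 (SE 0.15), and it turned to -0.0059 without control 3, 6 and 12. Rpl29, also known as a heparin-binding protein, had 94.9, 137 and 338 CPM in control and 135, 155 and 194 CPM in MCD livers (log2 fold change 0.08, SE 0.14). Rpl4, which reaches into the exit tunnel, had 446, 514 and 960.4 CPM against 551, 577 and 672 CPM (log2 fold change 0.10, SE 0.10). None of these genes passed the test on the TMM scale. Without control 12, Rpl29 (0.29, edgeR FDR 0.00167) and Rpl4 (0.23, edgeR FDR 0.000983) passed the FDR but not the fold limit.

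Rpl10 (ENSMUSG00000008682) did not follow the other members in control 12. It is one of the last proteins to join the large subunit and shapes the peptidyl transferase centre. Its level was 91.4 CPM in control 12, close to the 91.2 CPM of control 3 and 94.6 CPM of control 6, while the other 9 controls ran from 160.4 to 242 CPM. In MCD livers it was 154, 178 and 218 CPM. The log2 fold change was 0.09, with an SE of 0.14 and an edgeR FDR of 0.608, and -0.06 without control 3, 6 and 12.

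Libraries differed in a level that nearly all members shared. Averaged over members, log2 CPM relative to the 11 other controls was 1.16 in control 12, -0.60 in control 3 and -0.54 in control 6, and ran from -0.12 to 0.34 in the remaining 9 controls. In MCD livers it ran from 0.41 to 0.82, with MCD 10 and MCD 2 highest. The SD of this shared level was 0.44 in control libraries, 0.31 in controls without library 12, and 0.13 in MCD libraries. In controls without libraries 3, 6 and 12 it was also 0.13, so the wider control spread rested on those libraries. After the shared level was taken out, the SD of a typical member (median over members) was 0.16 in control, 0.14 in control without library 12 and 0.06 in MCD libraries. For 71 of 78 members the spread was larger among the 11 controls than among the 12 MCD libraries. This remaining spread was not computed without control 3, 6 and 12. Most particular was Rps4l, annotated as a transcribed processed pseudogene but kept by the rule, with SDs of 0.64 in control and 0.66 in MCD libraries. Its level ran from 6.22 to 50.4 CPM in control and from 6.62 to 33.8 CPM in MCD livers, and without it the same number of members was called higher (22 of 77). Rpl5 followed the shared level less than most (SD 0.39 in control, 0.16 in MCD libraries).

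**Figure D3:**
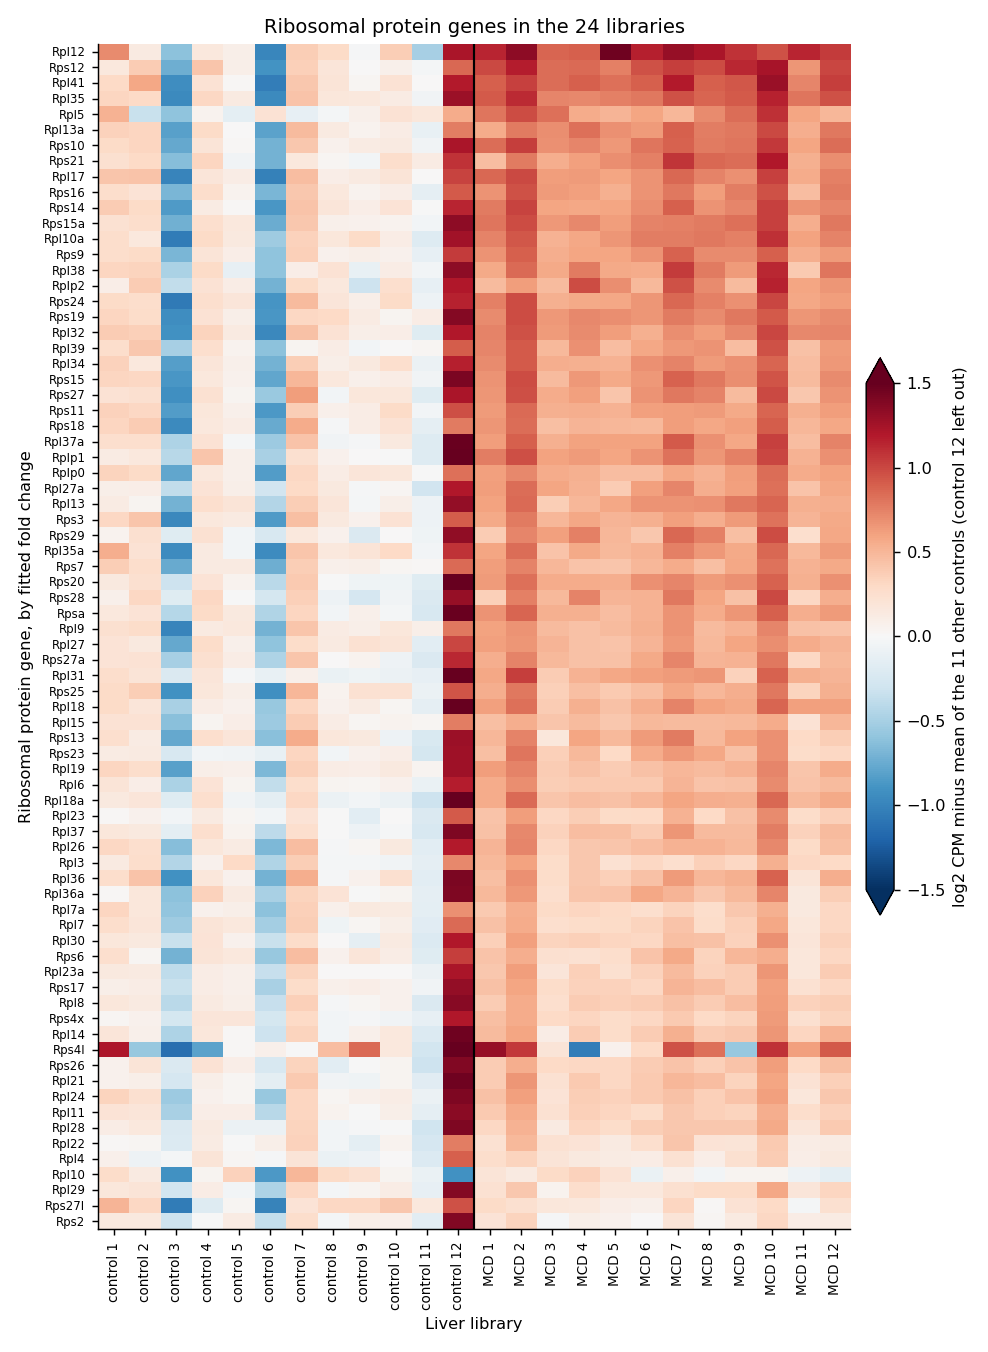
Level of 76 tested members (rows, ordered by fitted fold change) in each of the 24 libraries (columns, controls left of the line), as log2 CPM minus the mean of the 11 controls without library 12. Controls 3 and 6 are blue and control 12 dark red for nearly all members, Rpl10 is blue in control 12, and the MCD columns are red in the upper rows and pale at the bottom.

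Because one shared level dominated, each member was next compared as its share of the summed ribosomal protein counts, which does not depend on scaling by other genes. Members must balance on this scale, since a gain of one is a loss of the rest. At the same limits only Rpl12 was called (log2 fold change 0.60, SE 0.11, edgeR FDR 2.04e-05), 1 higher and 0 lower, where 11.5% of all genes were higher and 50.4% lower against the same total. At an unadjusted p under 0.05 in the same edgeR fit, 21 members were higher and 19 lower, with the share of all genes not counted. At an FDR of 0.01 with no fold limit, 12 members were higher and 5 lower, where 11.9% of all genes were higher and 56.5% lower. As most genes passed against this total, adjusting over all of them made this FDR little stricter than an unadjusted p. No adjustment over the members alone was run. The balance depended on how the members were centred: with TMM factors computed among the members alone, 7 were higher and 8 lower, beside 11.2% and 58.7% of all genes, and 12 of the 17 remained (Rps9, Rps14, Rps16, Rps21 and Rpl13a were lost). After Rpl12, gains included Rps12 (0.46), Rpl41 (0.41), Rpl35 (0.34) and Rps10 (0.27), followed by Rpl13a, Rps21, Rps15a, Rps14, Rps16 and Rps9 (0.25 to 0.18). Losses were in Rps2 (-0.42), Rps27l (-0.36), Rpl4 (-0.33), Rpl29 (-0.28) and Rpl11 (-0.18). Without control 12 all 17 of these members still passed the FDR, but the counts became 16 higher and 9 lower, beside 12.1% and 63.4% of all genes. The largest loss was then in Rpl10 (-0.45, edgeR FDR 0.000103), and Rpl22 (-0.30), Rpl7a (-0.19) and Rpl7 (-0.17) also passed, as did Rplp1, Rpl10a, Rps19 and Rpl37a among the gains (0.16 to 0.21). Leaving out other single libraries kept 11 (without MCD 7 or MCD 12) to 16 of the 17, and the 6 lost in both of the former were Rpl13a, Rps21, Rps14, Rps16, Rps9 and Rpl11.

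For 8 members the shares of the diets did not overlap in any of the 24 libraries, control 12 included. Shares of 4 members (5.13%) were higher in every MCD library (Rps12, Rpl35, Rps10 and Rps9) and of 4 (5.13%) lower (Rps2, Rpl29, Rpl11 and Rpl23a). Against the same total 4.09% of all genes were above and 6.57% below in all libraries, so these counts were near the background, and the values of the 8 genes are given as a description. Rps12 made up 0.846%, 1.11% and 1.31% (lowest, median, highest) of the ribosomal protein counts in control and 1.34%, 1.51% and 1.67% in MCD livers. Rps10 made up 1.07%, 1.29% and 1.35% against 1.43%, 1.51% and 1.56%, and Rpl35 0.565%, 0.810% and 0.842% against 0.912%, 0.990% and 1.03%. Rps9, of the mRNA entry channel like Rps2, made up 1.91%, 2.11% and 2.22% in control and 2.29%, 2.35% and 2.54% in MCD livers. In the other direction Rps2 fell from 3.80%, 4.26% and 5.07% to 3.11%, 3.27% and 3.55%. Rpl29 made up 0.996%, 1.07% and 1.29% in control and 0.837%, 0.907% and 0.951% in MCD livers. Rpl11, the partner of Rpl5, made up 1.604%, 1.69% and 1.91% against 1.45%, 1.504% and 1.59%. Rpl23a, of the exit tunnel, was lower in every MCD library (1.57%, 1.62% and 1.86% against 1.42%, 1.51% and 1.55%) but did not pass the FDR of 0.01 (edgeR FDR 0.0268).

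**Figure D4:**
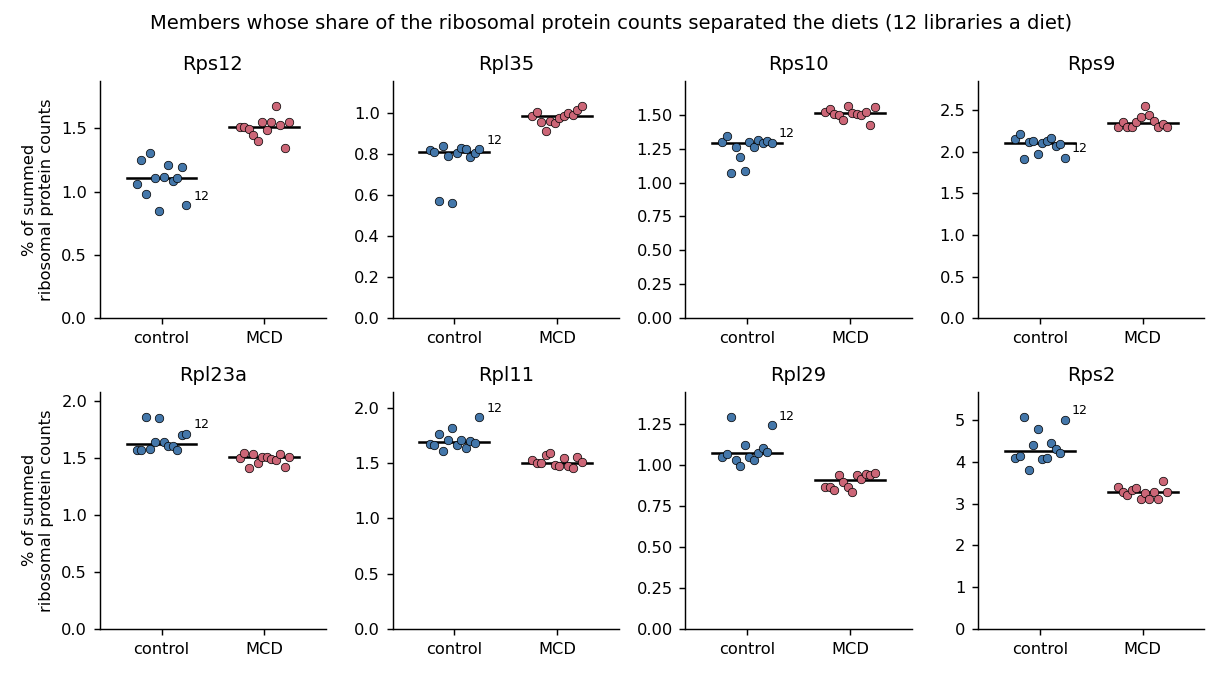
Share of the summed ribosomal protein counts (percent, axis from 0) taken by each of the 8 members whose diets did not overlap, with 1 point per library in replicate order, the median as a bar and control 12 numbered. The upper row is higher in all MCD libraries (Rps12, median 1.11% in control and 1.51% in MCD) and the lower row lower (Rps2, median 4.26% and 3.27%).

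Members with described roles outside the ribosome or in disease were followed as a list of 19, of which 7 (36.8%) were called higher and 0 lower (median log2 fold change 0.45) and 12 (63.2%) without control 12, beside 19.2% and 21.5% of all genes. Without control 6 the calls of Rpl38, Rps19, Rps24 and Rplp2 were lost. With the correction for transcript length 3 of the 19 were called higher, where 20.0% of all genes were. Of the small subunit genes in that list mutated in Diamond-Blackfan anaemia, Rps19 (0.53) and Rps24 (0.53) passed the limits with all libraries, though not without control 6 or 11, and Rps26 did not (0.21, SE 0.14). Rps14, whose loss causes the anaemia of the 5q- syndrome, was called higher (0.57). Of the Mdm2-binding members, Rpl5 was called higher, while Rpl11 (0.18, SE 0.14), Rpl23 (0.31, SE 0.10) and Rpl26 (0.31, SE 0.14) did not reach the limits, nor did Rps3 (0.45) or Rps27a (0.40), the ribosomal protein made as a fusion with ubiquitin. Rpl11, which had far more counts than its partner Rpl5, had 146, 218 and 521 CPM in control and 240.2, 261 and 299.7 CPM in MCD livers. Rps6, the substrate of S6 kinase, had 168, 302 and 562 CPM against 310, 356 and 407 CPM (0.23, SE 0.13, edgeR FDR 0.126). Rpsa, also known as a laminin receptor, had 302, 444 and 1150 CPM against 567, 624 and 767 CPM (0.42, SE 0.16, edgeR FDR 0.0214). Rpl38, required for axial skeleton patterning, was called higher (0.54), and Rpl22, required by T cell progenitors, was not (0.16, SE 0.09, edgeR FDR 0.122). Several of these values rested on control 12. Without it Rpsa was 0.65 (edgeR FDR 4.18e-07) and was called higher, with every MCD library above the 11 other controls, and Rps3 (0.57) and Rps27a (0.56) were called higher too. Without it Rpl11 (0.39), Rps26 (0.42), Rps6 (0.38), Rpl22 (0.28), Rpl23 (0.45) and Rpl26 (0.49) passed the FDR but not the fold limit.

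The 4 X-linked members were Rpl39 (0.52, called higher), Rpl36a (0.26), Rps4x (0.22) and Rpl10 (0.09). Without control 12, Rpl36a (0.47) and Rps4x (0.40) passed the FDR but not the fold limit. Of the 5 tissue-restricted or duplicated paralogs, Rps27l and Rps4l were tested and neither was called. Rpl3l, of skeletal and heart muscle, had 0 to 6 counts per library in either diet, and the testis gene Rpl10l 0 counts in every library. Rpl39l had 0 to 2 counts in control libraries (mean 0.0175 CPM) and 0 to 7, with a median of 1.5, in MCD libraries (mean 0.102 CPM). Most of these counts were under 3, the number below which a level was not resolved here, and these genes were not tested.

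Levels were compared between members only per length, first per kilobase of the longest annotated transcript. Rplp1 (mean 805 CPM per kilobase in control and 1117 in MCD livers), Rps2 (543 and 522) and Rpl23a (379.9 and 444) were the most abundant in control livers. In MCD livers Rplp1 was followed by Rpl41 (319 in control, 539.6 in MCD), Rps2 and Rpl19 (358 and 449). Rpl12 (4.26 and 8.15) and Rpl5 (5.94 and 9.27) had the lowest counted levels on both diets, below a median over members of 148 in control and 189 in MCD livers. Both were among the 6 members with the largest fold changes. The order depended on the length used: per kilobase of coding sequence Rpl41, whose coding sequence is short, came first (2956 in control and 5001 in MCD livers), ahead of Rplp1 (1174 and 1629.6), while Rpl5 (13.6 and 21.3) was the lowest. Per kilobase of the longest transcript, the order of levels across the 78 members was nearly the same on both diets (Spearman's rho 0.98), while the fold change had a rho of -0.16 with mean CPM, -0.19 with coding length and 0.11 with the length of the longest transcript. These are correlations across genes of the same libraries, and genes are not independent replicates.

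Ribosomal protein genes have many processed copies, so reads can match several places. Of the 50-base windows of a member's principal transcript, a median of 52.2% also occurred in a transcript of another gene in the annotation, and the highest value was 98.6%, in Rps27. Rpl7a shared windows with 120 other genes, and Rps2 with 71. Rpl12 and Rpl5, lowest per kilobase of the longest transcript, each shared windows with 14 other genes (49.0% and 48.5% of windows). Their low levels are of counted reads, and the part of reads matching several genes in them was not tested. Members called higher shared a median of 41.0% and the others 58.3%, and fold change and shared percentage had a rho of -0.16 across members. The study's RNA-seq methods name a stranded mRNA kit, but how reads matching several genes were counted in these libraries, and whether strand was used in counting, is not given in the sources used here. Exons of 18 members overlap a gene on the opposite strand, among them Rpl12 (Lrsam1), Rpl35 (Arpc5l and Wdr38) and Rpl5 (Fam69a), and exons of 27 overlap one on the same strand, mostly small RNAs. Values of these genes are uncertain to that extent, and 16 of the 22 members called higher had no overlap on the opposite strand.

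Other genes of the pathway had lower median fold changes than the members. Ribosomal proteins that the symbol rule does not take in numbered 9, of which 1 was called higher and 0 lower (median log2 fold change 0.27). Without control 12 the median was 0.47, with 3 called higher. The gene called higher with all libraries was Rpl22l1, the paralog of Rpl22. Its level was 10.3, 24.6 and 41.2 CPM in control and 40.1, 49.1 and 60.5 CPM in MCD livers (log2 fold change 1.02, SE 0.15, edgeR FDR 2.66e-06). Every MCD library exceeded the 11 other controls, and the gene it parallels, Rpl22, had 98.2, 118 and 198 CPM against 126, 135 and 164 CPM. Rack1, the scaffold on the small subunit, had 149.7, 294 and 457 CPM against 360, 392 and 464 CPM (0.47, SE 0.12). Fau, which encodes Rps30 as a fusion, had 124, 214 and 518 CPM against 242, 279 and 325 CPM (0.27, SE 0.16). Without control 12 its value was 0.48, and Rack1 (0.59) was called higher.

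Among 17 elongation factors and other genes with TOP mRNAs, 0 were called higher and 1 lower, with a median of 0.15 (0.25 without control 12). Eif4b, an initiation factor, was lower: 293, 365 and 526 CPM in control and 228, 255 and 287 CPM in MCD livers (-0.56, SE 0.08), a call lost without control 3 (-0.494). Eef2, the translocation factor, had 1854, 2313 and 3549 CPM against 1781, 1851 and 2056 CPM (-0.40, SE 0.10), and Eef1a1, which delivers aminoacyl-tRNA, 2998, 5086 and 5815 CPM against 4195, 4442 and 4938 CPM (-0.10, SE 0.09). Of these 17 genes, 12 had a positive value, against 77 of the 78 members. Of 7 non-coding RNAs that host small nucleolar RNAs, 1 was called higher, Zfas1 (0.56, SE 0.14), and Gas5 had 32.5, 40.3 and 72.6 CPM in control and 44.6, 49.7 and 58.7 CPM in MCD livers (0.28, SE 0.10).

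Translation initiation factors (31 tested) had 0 called higher and 4 lower, Eif3a (-0.80), Eif4g1 (-0.78), Eif5 (-0.63) and Eif4a2 (-0.60), and a median of -0.05, which turned to 0.04 without control 12. Eif4g1, the scaffold of the cap-binding complex, had 325, 521 and 747 CPM in control and 251, 321 and 350.1 CPM in MCD livers. RNA polymerase I and rRNA transcription (17 tested) had 1 higher, Taf1c (0.77), and 0 lower. Ribosome assembly factors (58 tested) had 2 higher, Nle1 (0.80) and Gar1 (0.53), and 2 lower, Utp20 (-0.58) and Heatr3 (-0.55), with a median of -0.02, which turned to 0.05 without control 12. The call of Gar1 was lost without control 10 (0.492), and that of Heatr3 without control 1 or without MCD 2, 4, 6, 8 or 10 (-0.497 to -0.469). Ribosome quality control had 0 higher and 1 lower of 15, the ubiquitin ligase Ltn1 (-0.59). The medians of these lists ran from -0.26 for quality control to 0.15 for RNA polymerase I, against 0.42 for the members, and without control 12 from -0.19 to 0.27, against 0.58.

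Regulators of ribosomal protein mRNA and ribosome output (27 tested) had 1 higher and 10 lower, with a median of -0.32. The 10 included Mtor (-0.73) and its partner Rptor (-0.62), the S6 kinase gene Rps6kb1 (-0.54), and Larp1 (-0.67), which binds TOP mRNAs. They also included Tsc1 (-0.82) and Tsc2 (-0.52), which restrain mTOR, so that genes acting both ways were lower, though Tsc2 kept its call in only 10 of the 24 fits that each left out 1 library (-0.43 without control 12) and Rps6kb1 in 19. Gabpa, an ETS factor, was the lowest, with 18.8, 46.7 and 51.1 CPM in control and 15.5, 21.1 and 26.1 CPM in MCD livers (-1.04, SE 0.12, edgeR FDR 3.52e-08). Its lowest control was library 12. Eif4ebp2, a repressor of cap-dependent initiation, had 407, 511 and 840 CPM against 269, 298 and 327 CPM (-0.87, SE 0.10, edgeR FDR 4.31e-08), without overlap. Ddit4, an mTOR inhibitor induced by stress, was the gene called higher, with 4.29, 7.75 and 14.9 CPM against 9.02, 17.1 and 46.6 CPM (1.30, SE 0.26, edgeR FDR 9.90e-05).

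Mitochondrial ribosomal proteins, which build the separate ribosome inside mitochondria, are as many as the cytosolic ones tested. Of 78 tested, 1 was called higher, Mrpl54 (0.64, SE 0.14), and 3 lower, Mrps2 (-0.56), Mrpl49 (-0.54) and Mrpl39 (-0.54). Their median was -0.08 and 27 of 78 were positive, against 0.42 and 77 of 78 for the cytosolic members. Without control 12 their median turned to 0.09, against 0.58 for the cytosolic members, and 1 was called higher and 1 lower, with Mrpl49 at -0.42 and Mrpl39 at -0.48. Of the 24 fits that each left out 1 library, Mrps2 kept its call in 20, Mrpl49 in 15 and Mrpl39 in 14. Their summed level was 1508 to 4265 CPM in control livers, with control 12 again highest and the other 11 at most 2654 CPM, and 2142 to 2458 CPM in MCD livers. Control 12 thus stood high for both ribosomes, but not for them in particular. Summed over all tested genes it was also the highest control (1556450 CPM, the other 11 at most 1262650 CPM). Of the 2 ribosomes, the MCD libraries stood above the other controls only for the cytosolic one.

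**Figure D5:**
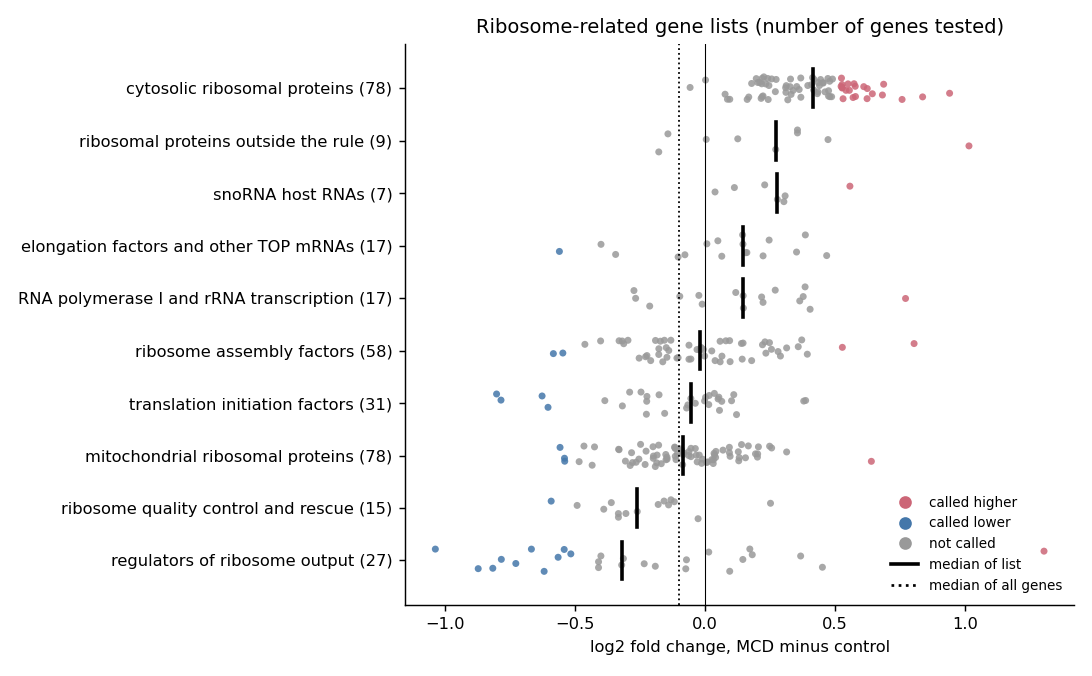
Log2 fold change (MCD minus control) of every tested gene in each ribosome-related list (points, red called higher, blue called lower, grey not called), with the list's median as a bar, the median of all genes as a dotted line, and the number tested in brackets. The cytosolic ribosomal proteins have a median of 0.42, the mitochondrial ones -0.08 (0.09 without control 12), and the regulators -0.32.

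Markers of the liver's cell types moved with diet as well. Hepatocyte markers had 4 of 10 lower and 0 higher, with summed levels of 82229 to 191067 CPM in control (control 12 highest) and 64008 to 94323 CPM in MCD livers. Markers of monocyte-derived macrophages had 10 of 10 higher (106 to 297 CPM against 1880.0 to 4212 CPM), cholangiocyte markers 7 of 7 (30.2 to 147 against 454 to 909 CPM), mesenchymal markers 8 of 10, with 1 lower (206 to 619 against 811 to 1437 CPM), and proliferation genes 8 of 8 (22.3 to 52.6 against 62.5 to 82.7 CPM). Lymphocyte markers had 5 of 10 higher (36.2 to 278 against 50.7 to 268 CPM). Kupffer cell markers had 5 of 6 lower (149 to 445 against 81.3 to 297 CPM), endothelial markers 5 of 8 lower (262 to 407 against 220.2 to 283 CPM) and erythroid markers 4 of 5 tested lower (339 to 1758 against 180.0 to 455 CPM). Alb, the defining hepatocyte gene, was abundant in both diets, so the tissue label was met. The part of these cell types in the ribosomal protein values was not tested.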

How the data were processed

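Per the labels, libraries were made from poly(A) RNA of livers. The authors deposited raw counts per Ensembl gene, 1 column per library. Their processing notes list bcl2fastq, STAR 2.7.3a and mm10. The study's RNA-seq methods name a stranded TruSeq mRNA kit and, for reads aligned to a human reference, the exon quantification pipeline and PISCES. Whether these were also used for the mouse livers, and with which strand setting, is not given in the sources used here. All 24 columns matched a sample title and 0 were left unused. Symbols, lengths and overlaps came from GENCODE mouse release M21 (51745 of 56205 rows named, rows without a symbol holding 0.0808% of counts), and start-site sequences from RefSeq (GRCm38.p6).

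Members and lists were chosen with earlier results of these data known. Counts were analysed in R 4.3.3. Genes kept by filterByExpr (14109) were fitted with edgeR 4.0.16 (TMM, glmQLFit, glmQLFTest) over all 24 libraries without covariates, with Benjamini-Hochberg adjustment over all genes. Calls needed an FDR of at most 0.01 and a log2 fold change beyond 0.5 in size, as the study used for human liver. SE is the absolute log2 fold change over the square root of F. The relative fit used the summed member counts as library size. The biological coefficient of variation was 26.8%. Named genes were the 10 largest called each way, the 5 highest and 5 lowest, the 3 most and 3 least abundant, the members of the role lists, and the 2 highest and 2 lowest called per related list. Members not overlapping in share, and others named, were chosen after their values were seen. Alternatives were other scalings (with DESeq2 1.42.0 and limma 3.58.1), filters, limits, a replicate block, a sex-linked score, length and GC offsets, and leaving out libraries. The fits were tested on simulated data. The floor of 3 counts covers counting error only. Figures were drawn with matplotlib 3.10.9 in Python 3.11.15. A few genes are not reported here by name, and 2 members are left out of the plots of single members.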

Additional observations from a re-analysis of the deposited data

How the results depend on the processing

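The 22 members called higher (where 19.2% of all genes were) became 46 with upper-quartile factors (23.1% of all genes in that fit), 72 with total counts (32.2%), 39 with at least 10 counts in every sample (15.4%), 36 with limma-voom (20.3%), 11 with the length offset (20.0%), 48 with only an FDR of 0.05 (26.5%), 0 with a log2 limit of 1 (13.2%), and 37 (22.1%) without control 3, 6 and 12. Leaving out single libraries gave 14 (without control 6) to 51 (without control 12), with medians of 0.36 to 0.58. The cause was not tested. No alternative called a member lower on the TMM or another whole-library scale. The median moved beyond the spread between libraries with total counts only (0.82). Against the summed member counts, 1 higher and 0 lower became 19 and 15 with only an FDR of 0.05, and 0 and 0 with a log2 limit of 1. With only an FDR of 0.01 they became 12 and 5, where 11.9% of all genes were higher and 56.5% lower. Leaving out control 3, 6 and 12 gave 1 lower. Apart from the FDR of 0.01, the share of all genes was not counted for these alternatives.

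The labels number replicates alike in both diets. Of 12 same-numbered pairs, 8 correlated above 0.1 (-0.28 to 0.349) and 2 control libraries matched their own number best, so the numbers were not shown to pair libraries. With the replicate block 5 members were higher and 3 lower in share at an FDR of 0.01 (12.5% and 49.8% of all genes), 8 of the 17 remaining (Rps27l, edgeR FDR 0.0153, was among those lost), and 36 members were called higher on the TMM scale (19.7% of all genes), and Rps2 alone among the named genes turned its sign (0.022).

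Near 0, signs turned: Rps2 was 0.10 with upper-quartile factors, 0.36 with total counts, 0.029 with at least 10 counts, 0.012 with limma-voom and 0.11 without control 3, 6 and 12. With the length offset Rps27l was -0.10, Rpl29 -0.0084, Rpl10 -0.056 and Rpl22 -0.010. With the GC offset Rpl29 was -0.043, and without control 3, 6 and 12 Rps27l was -0.0059 and Rpl10 -0.064. Leaving out single libraries gave -0.10 to 0.16 for Rps2 and -0.073 to 0.13 for Rps27l. Of 862 values of named genes under other alternatives, 689 kept direction and call, 112 lost the call, 48 gained it and 13 turned. Of 1392 with a library left out, 1310 kept both.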
